A study of Mus musculus with 22 samples.

Results

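The genes of the mitochondrial respiratory chain were followed across all 4 groups of a mouse embryonic fibroblast experiment. Mouse embryonic fibroblasts (MEFs) are primary connective tissue cells grown from embryos. The genes were chosen by symbol: every gene beginning with Nduf, Sdh, Uqcr or Atp5, and Cox4 to Cox8 followed by a letter. This gave 94 of the 18194 genes on the array that had a probe set, a group of probes against a transcript, of their own. Another 8 matching symbols, among them Ndufs6 and Ndufa11, were only on probe sets shared between genes and were left out. Of the 94 genes, 73 encode ubiquitous subunits: 34 of complex I, 4 of complex II, 8 of complex III, 10 of complex IV and 17 of complex V. A further 7 are tissue isoforms of complex IV, 12 are assembly factors named Ndufaf or Sdhaf, and 2 are relatives of subunits, Ndufa4l2 and Cox7a2l.

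MEFs were infected with adenovirus, and RNA was taken 7 days later. The control group (5 arrays, labelled wild type) received virus with GFP. The other groups received virus with Cre recombinase, which switched on a mutant oncogene from a silenced allele (oncogene, 5 arrays), deleted floxed Wt1, the gene of a zinc finger transcription factor (Wt1-null, 5 arrays), or did both (double, 7 arrays). A comparison with the control therefore also compares the viruses, and the sources used here do not give the share of cells that Cre reached. The design asks what the oncogene and the loss of Wt1 do to the transcriptome alone and together. In RNA from whole cultures, fewer cells of a type and less RNA per cell cannot be told apart.

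The respiratory chain passes electrons from NADH through complex I, and from succinate through complex II, to coenzyme Q, complex III, cytochrome c and complex IV, which hands them to oxygen. Complexes I, III and IV pump protons out of the mitochondrial matrix, and complex V, the ATP synthase, lets them back in to make ATP. All but complex II join subunits encoded in the nucleus with a few encoded in mitochondrial DNA, assembly factors fit them together, and some complex IV subunits exist as a ubiquitous form and as forms of muscle, lung or testis.

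Levels are given throughout as RMA values (log2). The floor was taken from 3 Y-linked genes, which read between 3.65 and 5.06 on the 9 arrays where Xist, made from the inactive X chromosome, was high. These 9 were control 4 and 5, Wt1-null 1 and 2, and double 1, 2, 5, 6 and 7. On the oncogene arrays Xist ran only from 5.29 to 6.42, so high Xist was spread unevenly over the groups. The probe set of Wt1 was inside this floor on every array, from 4.22 to 4.46 in control and from 4.34 to 4.72 in Wt1-null arrays, so its deletion could not be seen. The fibroblast marker Vim was between 14.74 and 14.93 on every array, and Ptprc of leukocytes, Pecam1 of endothelium, Cdh1 of epithelium and Snap25 of neurons did not exceed 4.93, while other markers of these cells were brighter and are given with the last results. Wt1-null 2 and double 2 were nearly the same array, with a standard deviation (SD) of 0.152 between their values over all probe sets, as were Wt1-null 3 and Wt1-null 4 with 0.162, while the next closest pair had 0.242. Wt1-null 2 and double 2 carry the labels of different genotypes, and whether 1 of them is mislabelled was not tested, so counting them as separate replicates rests on the labels alone. Double 4 and oncogene 4 stood apart in 1 of 3 measures of RNA quality. The excess of 3 prime over 5 prime signal for pyruvate carboxylase was 2.97 and 2.73 on them, against 0.85 to 2.27 elsewhere, and double 4 had the lowest mean correlation with the other arrays, 0.940. The same excess for actin (0.28 and 0.33, against 0.05 to 0.57 elsewhere) and Gapdh (0.12 and 0.11, against -0.19 to 0.21) was within the range of the other arrays. The accession numbers fall into 3 sets, which no label calls batches: Wt1-null has 2 arrays in the first and 3 in the second, control 1 in the second and 4 in the third, oncogene 1 in the first and 4 in the third, and double all 7 in the third. Wt1-null and double arrays thus share no set, and Wt1-null and control arrays share only the second, so that in these comparisons the set and the genotype can hardly be told apart.

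The promoters of 78 of the 94 genes were in the RefSeq table of mouse assembly GRCm38.p6, as windows of 300 bases, 250 before and 50 after the start of the transcript. The motif of nuclear respiratory factor 1 (NRF1), GCGCA, any base and GCGC, stood on either strand in 24.4% of these genes, against 8.63% of the 14369 array genes with a window. CCGGAAG, the core bound by ETS factors such as GABPA, was in 28.2% against 15.0%, and AANATGGCG, the motif of YY1, in 14.1% against 4.27%. TCAAGGTCA, the motif of the estrogen-related receptors, was in 2.56% against 0.404%, and CCAAT did not stand out, with 42.3% against 42%. None of the 4 tissue isoforms with a window held the NRF1, ETS or YY1 letters, and nor did 5 of the 8 ubiquitous complex IV genes with a window (Cox5a, Cox5b, Cox7a2, Cox7c and Ndufa4). The shares describe letters in these windows, not binding.

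**Figure D1:**
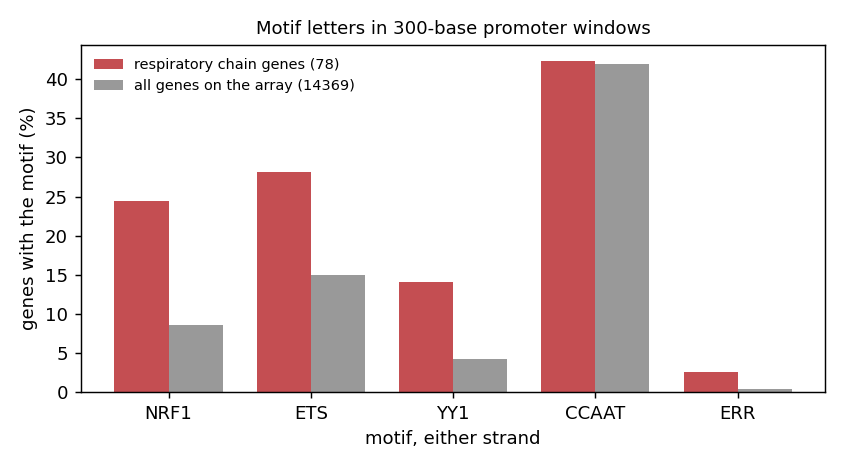
Share of genes (percent, vertical axis) whose 300-base promoter window holds each motif (horizontal axis) on either strand, for the 78 respiratory chain genes and all 14369 array genes with a window. The red bar for NRF1 stands at 24.4% against 8.63% for the grey bar, while the CCAAT bars are level.

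The promoters of 4 genes, 250 bases upstream of the start, are shown for the genes called and for comparison with them. Cox6b1 and Cox6b2 encode the ubiquitous and the testis form of the same complex IV subunit, Cox6a1 is another ubiquitous subunit of that complex, chosen because it alone of these 8 genes holds NRF1 letters, and Ndufaf5 is the assembly factor that fell. Capitals mark NRF1, ETS and CCAAT letters on either strand, so ATTGG is CCAAT and CTTCCGG is the ETS core read on the other strand.
Cox6a1 (chr5:115348959-115349208, minus strand): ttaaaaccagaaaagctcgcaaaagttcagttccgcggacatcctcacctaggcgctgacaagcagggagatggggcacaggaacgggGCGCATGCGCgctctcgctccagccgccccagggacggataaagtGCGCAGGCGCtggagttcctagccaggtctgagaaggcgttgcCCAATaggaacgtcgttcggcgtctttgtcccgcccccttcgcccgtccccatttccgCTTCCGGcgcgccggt
Cox6b1 (chr7:30626115-30626364, minus strand): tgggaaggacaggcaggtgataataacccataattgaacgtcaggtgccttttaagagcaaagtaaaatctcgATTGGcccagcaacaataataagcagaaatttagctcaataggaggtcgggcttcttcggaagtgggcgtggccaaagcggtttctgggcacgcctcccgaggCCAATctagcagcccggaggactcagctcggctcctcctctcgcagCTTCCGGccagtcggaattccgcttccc
Cox6b2 (chr7:4753095-4753344, minus strand): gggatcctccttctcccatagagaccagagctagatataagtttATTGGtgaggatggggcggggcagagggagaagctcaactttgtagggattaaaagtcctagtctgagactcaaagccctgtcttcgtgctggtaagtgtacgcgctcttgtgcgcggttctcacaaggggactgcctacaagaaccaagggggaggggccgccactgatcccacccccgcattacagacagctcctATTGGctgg
Ndufaf5 (chr2:140170396-140170645, plus strand): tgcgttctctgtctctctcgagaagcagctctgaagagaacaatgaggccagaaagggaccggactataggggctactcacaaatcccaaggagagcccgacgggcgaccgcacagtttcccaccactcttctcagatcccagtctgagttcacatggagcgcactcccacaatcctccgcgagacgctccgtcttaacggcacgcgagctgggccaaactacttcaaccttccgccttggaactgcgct
Cox6a1 held the NRF1 letters at 162 and 117 bases before the start and the ETS core at 16 bases before it. Cox6b1 held the ETS core at 28 bases before the start, with CCAAT at 177 and 74 bases. Cox6b2 held only CCAAT, at 206 and 9 bases before the start, among these motifs. The NRF1 letters of Ndufaf5 lie 17 bases after the start, outside the stretch shown.

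The respiratory chain as a whole differed little between the groups. Differences are between group means from a limma fit over all 22 arrays, with p-values adjusted by the Benjamini-Hochberg method over all 18194 genes, and a gene is called at an adjusted p below 0.05. In double against control 2 of the 94 genes were called, Cox6b2 higher and Ndufaf5 lower, where 5.93% of all genes were called (3.48% higher and 2.45% lower). An unadjusted p below 0.05 was reached by 13, against 20.1% of all genes. In oncogene against control 0 were called by limma, against 2.04% of all genes, and 12 had an unadjusted p below 0.05, against 15% of all genes. In Wt1-null against control 0 were called by limma, against 0.104%, and 16 had an unadjusted p below 0.05, against 12.7%. In double against oncogene limma called 0, as among all genes (0%), and 0 reached an unadjusted p below 0.05, against 3.09%. In double against Wt1-null 0 were called by limma, against 0.0824%, and 7 had an unadjusted p below 0.05, against 14.8%.

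The differences were small, with medians below 0 in every comparison with the control. In Wt1-null against control 73 of 94 genes were lower (77.7%), with a median log2 difference of -0.136, beside 59.7% of all genes and a median of -0.048. In oncogene against control 64 were lower, with a median of -0.11 beside -0.03 for all genes, and in double against control 65 were lower, with a median of -0.093 beside -0.022. These 3 comparisons share the control arrays. Single arrays moved these medians. Without double 4, 58 genes were lower in double against control, with a median of -0.044, level with the -0.042 of all genes, and without control 3 the median was -0.058 beside -0.014. Without oncogene 5, 59 were lower in oncogene against control, with a median of -0.072 beside -0.032. Others moved them the other way: without oncogene 3, 79 were lower in that comparison, with a median of -0.151 beside -0.032. Without double 1, 71 were lower in double against control, with a median of -0.129 beside -0.035. Within the third set of accession numbers, 73 were lower in oncogene against control, with a median of -0.156 beside -0.037. There 65 were lower in double against control, with a median of -0.13 beside -0.04. In Wt1-null against control the median lay between -0.202 (without Wt1-null 2) and -0.102 (without Wt1-null 5) when 1 array was left out, and it was -0.144 with Wt1-null 3 and 4 averaged into 1 array and -0.189 with the accession set as a block. Within the second set, which has 3 Wt1-null arrays and 1 control array and so allows no test, 75 were lower, with a median of -0.157 beside -0.01. In double against oncogene 39 were lower, with a median of 0.019 that lay between -0.036 and 0.057 with 1 array left out. In double against Wt1-null 33 were lower, with a median of 0.064 beside 0.037 for all genes. It was 0.026 without double 1, 0.036 without Wt1-null 5, 0.107 without Wt1-null 2, 0.11 without double 4 and -0.004 with the mean of mitosis genes as a covariate. Averaged over the 94 genes, control arrays stood at 11.43 ± 0.06 (SD, n = 5) and oncogene arrays at 11.34 ± 0.18 (SD, n = 5). Wt1-null arrays stood at 11.29 ± 0.12 (SD, n = 5) and double arrays at 11.35 ± 0.16 (SD, n = 7). The pooled SD between arrays of a group was 0.139, about as large as the widest gap between these means.

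The fit left room for changes of moderate size only. The 95% interval of the log2 difference lay within -1 to 1 for 71 of the 73 ubiquitous subunits in double against control, 70 in oncogene against control and 69 in Wt1-null against control. It did so for all 73 in double against oncogene and in double against Wt1-null. The 73 include Ndufb4 of complex I, whose probe set averaged 4.73, at the floor, so that a change of its transcript could not be seen. The median distance from the difference to either limit was 0.31 in double against control and 0.33 in oncogene against control.

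**Figure D2:**
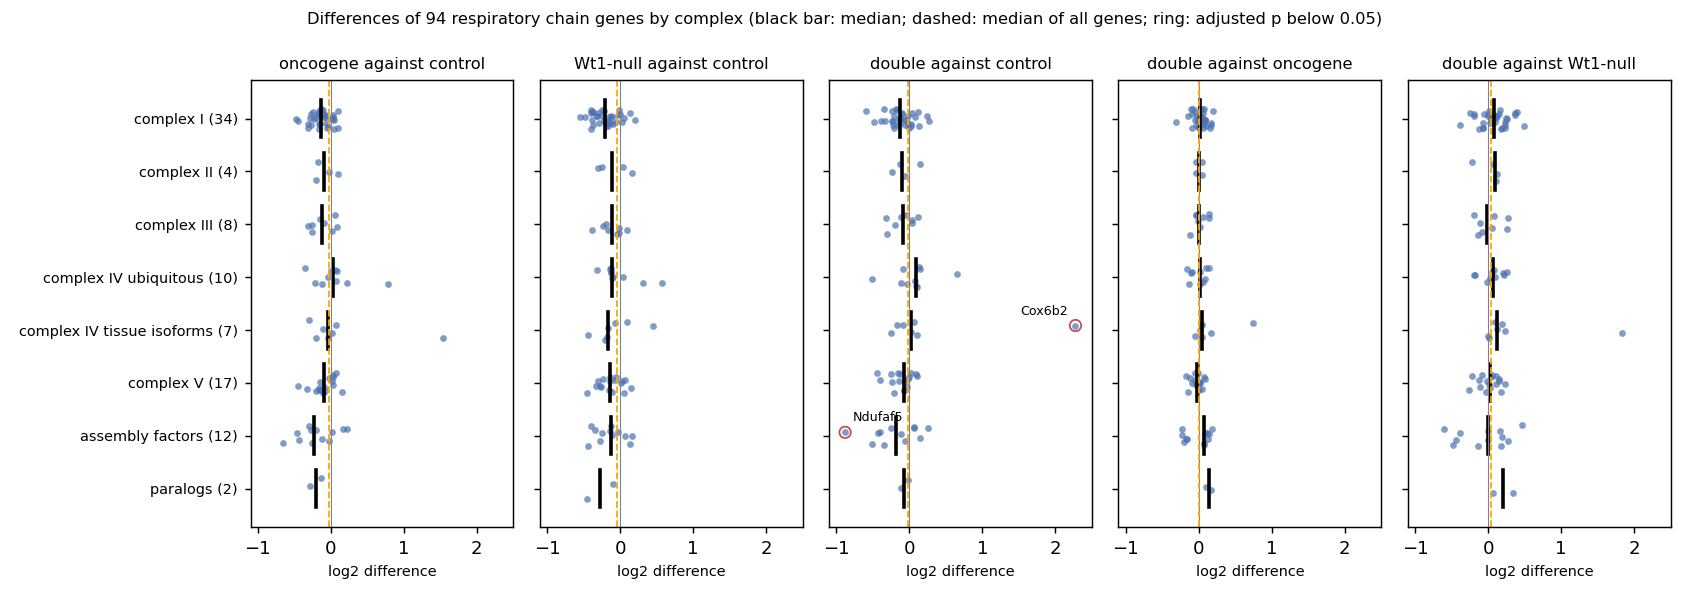
Log2 difference (horizontal axis) of each of the 94 genes in 5 comparisons, by complex (rows, with the number of genes), with black bars at the median of a row, dashed lines at the median of all genes and rings at genes with adjusted p below 0.05. Most points lie close to 0 and complex I leans to the left in the comparisons with control; Cox6b2 and Ndufaf5 carry the only rings.

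Cox6b2, the testis form of complex IV subunit 6b, was the gene of the chain that rose. Its single probe set read 7.76, 7.90, 8.88, 8.94 and 9.17 on control replicates 1 to 5. It read 9.94, 11.10, 10.95, 8.88 and 9.43 on oncogene replicates 1, 3, 4, 5 and 6, and 8.46, 11.13, 8.93, 8.76 and 7.59 on Wt1-null replicates 1 to 5. The 7 double arrays ran from 9.83 to 11.53, with a median of 10.86. Every double array was therefore above every control array, a separation upward that 2.49% of all genes showed, while the oncogene arrays overlapped with both and Wt1-null 2 alone of its group reached the level of the double arrays.

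Cox6b2 was 2.27 ± 0.50 (SE) higher on the log2 scale in double than in control arrays in the limma fit, with adjusted p = 0.00993, a fold of 4.84 with a 95% interval from 2.36 to 9.92. In oncogene against control the difference was 1.53 ± 0.54 (SE), limma adjusted p = 0.156, and in Wt1-null against control the fold was 1.36, with an interval from 0.627 to 2.96. Double against oncogene gave 0.74, limma adjusted p = 1, and 0.18 (adjusted p = 0.993) with Xist as a covariate. Double against Wt1-null gave 1.83, limma adjusted p = 0.11, and without Wt1-null 2 this became 2.37, adjusted p = 0.00312. It was 1.15 (adjusted p = 0.818) with the accession set as a block, 0.91 (adjusted p = 0.62) with the mean of mitosis genes and 0.99 (adjusted p = 0.65) with the pyruvate carboxylase excess as a covariate, and 1.80 (adjusted p = 0.298) with Wt1-null 3 and 4 averaged. The rise in double against control was called with each of the 22 arrays left out in turn (2.08 to 2.44) and within the third set of accession numbers alone (2.08, adjusted p = 0.0173). Leaving out an oncogene or Wt1-null array kept the difference at 2.27 and changed only the estimate of the spread and the adjustment. The difference was 2.20 (adjusted p = 0.00394) without Wt1-null 2 and double 2, and 2.18 (adjusted p = 0.0123) without oncogene 4 and double 4.

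Cox6b1, the ubiquitous form of the same subunit, did not move with it. It ran from 13.58 to 13.67 over the control arrays, 13.53 to 13.91 over the oncogene arrays, 13.45 to 13.94 over the Wt1-null arrays and 13.45 to 13.85 over the double arrays. The groups overlapped throughout, and the fold in double against control was 1.07, with an interval from 0.927 to 1.22. The difference between the values of Cox6b2 and Cox6b1 on an array changed by 2.18 from control to double, p = 0.00126 in an exact two-sided permutation test (the smallest these groups can give), adjusted p = 0.00631 over 5 comparisons. It changed by 1.46 from control to oncogene (exact permutation p = 0.0238, adjusted 0.0397), by 1.78 from Wt1-null to double (exact permutation p = 0.00758, adjusted 0.0189), by 0.72 from oncogene to double (exact permutation p = 0.13, adjusted 0.163) and by 0.41 from control to Wt1-null (exact permutation p = 0.571). This pair was chosen for the test after its values were seen, and the adjustment covers the 5 comparisons, not that choice. As Cox6b1 hardly moved, the test largely repeats the comparison of Cox6b2 alone. The limma fit did not call Cox6b2 in oncogene against control (adjusted p = 0.156) or in double against Wt1-null (adjusted p = 0.11). The permutation p-values for these comparisons therefore cannot stand as separate evidence. The test also counts nearly identical Wt1-null arrays as separate.

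**Figure D3:**
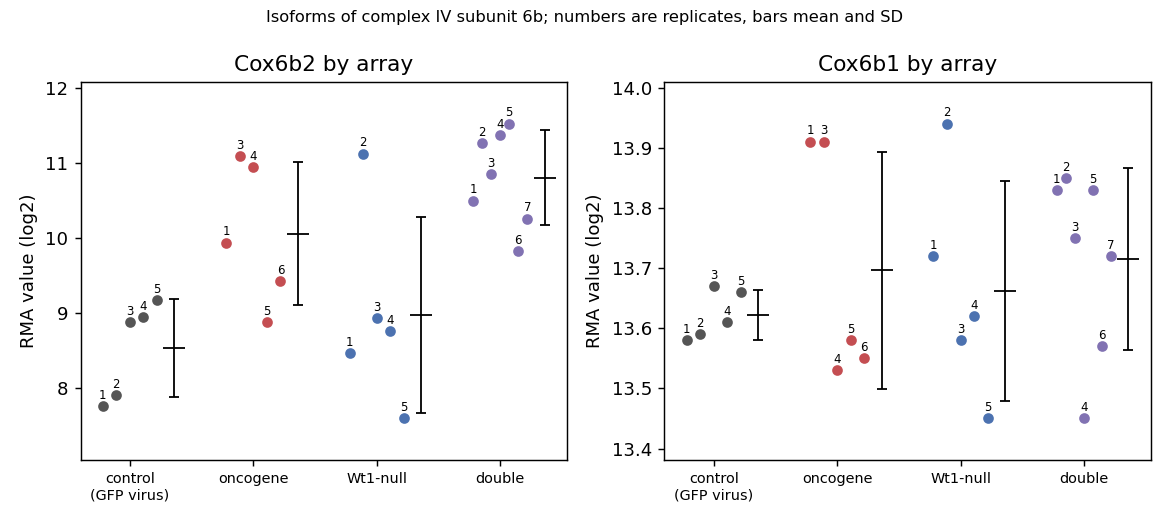
RMA values (log2, vertical axes, with different ranges) of Cox6b2 (left) and Cox6b1 (right) on each array, numbered by replicate, with the mean and SD of each group beside the points. All 7 double arrays lie above all 5 control arrays for Cox6b2, and Wt1-null 2 lies at 11.13, away from its group, while the Cox6b1 values of the groups overlap between 13.45 and 13.94.

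Cox6b2 and genes of mitosis ran in opposite directions on part of the arrays. Averaged over 25 mitosis genes, control arrays stood at 10.41 ± 0.29 (SD, n = 5), oncogene arrays at 10.48 ± 0.59 (SD, n = 5), Wt1-null arrays at 10.47 ± 0.82 (SD, n = 5) and double arrays at 9.59 ± 0.68 (SD, n = 7). All 25 were lower in double than in control, with a median of -0.824, 13 with an unadjusted p below 0.05 and 0 called by limma, where 54.6% of all genes were lower, 20.1% had an unadjusted p below 0.05 and 5.93% were called. In each of the 4 groups the array with the lowest Cox6b2 had the highest mitosis mean: control 1, oncogene 5, Wt1-null 5 and double 6. In the Wt1-null and the double group the array with the highest Cox6b2, Wt1-null 2 and double 5, had the lowest mitosis mean, 9.29 and 8.61. In the control and the oncogene group it did not. There Cox6b2 was highest on control 5 and oncogene 3. The mitosis mean was lowest on control 2 and oncogene 4, where Cox6b2 read 7.90 and 10.95. With the mitosis mean as a covariate in the fit, chosen after seeing the data, Cox6b2 was 1.42 higher in double than in control, limma adjusted p = 0.0592, and 1.61 higher in oncogene than in control, adjusted p = 0.0218. With the pyruvate carboxylase excess as the covariate, also added, the differences were 1.93, adjusted p = 0.00169, and 1.48, adjusted p = 0.0217.

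No other tissue isoform of complex IV was called in any comparison. Cox8c and Cox7b2, also known from testis, averaged 8.07 and 3.92 in control and 8.09 and 4.03 in double arrays; the probe set of Cox7b2, at 3.99 over all arrays, and that of Cox7a1, at 4.76, were at the floor. Cox4i2, a form of lung, averaged 6.04 in control and 5.94 in double arrays, and the ubiquitous Cox4i1 averaged 13.80 and 13.89. Cox6a2, a form of heart and muscle, was at 7.84 ± 0.14 (SD, n = 5) in control and 7.67 ± 0.19 (SD, n = 7) in double arrays. Cox8b, another muscle form, read 6.33, 6.72, 6.73, 6.47 and 6.45 on the control arrays and 6.20, 5.76, 6.30, 6.20 and 6.06 on the Wt1-null arrays. Every Wt1-null array was below every control array, but the difference of -0.44 ± 0.15 (SE) had a limma adjusted p of 0.257.

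The ubiquitous subunits of complex IV, the cytochrome c oxidase, showed no common direction: 6 of 10 were higher and 4 lower in both double and oncogene against control. Cox6a1 averaged 14.31 in control and 14.27 in double arrays and Cox8a 11.65 and 11.79, neither of them called. Cox6c varied most between arrays of a group among these 10, with 12.87, 12.02, 12.45, 12.38 and 12.66 on the control arrays but 11.07 on oncogene 4 and 10.75 on double 4, each the lowest of its group. Without these 2 arrays Cox6c was 0.63 higher in oncogene than in control, limma adjusted p = 0.0419, against 0.22 with them. Ndufa4, once counted in complex I and now in complex IV, was likewise lowest on oncogene 4 (10.73) and double 4 (10.02), and was 0.51 lower in double than in control, limma adjusted p = 0.359. The only probe set of Cox7c kept here was dim, between 4.70 and 6.51, and its difference of 0.58 in Wt1-null against control had a limma adjusted p of 0.528.

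Complex I, the NADH dehydrogenase, had a median difference below 0 against control in all 3 other groups. In Wt1-null against control 29 of its 34 genes were lower, with a median of -0.202 and 9 with an unadjusted p below 0.05, where 59.7% of all genes were lower and 12.7% had an unadjusted p below 0.05, and none was called. In oncogene and in double against control 26 were lower each, with medians of -0.138 and -0.124. Averaged over the complex, control arrays stood at 11.82 ± 0.09 (SD, n = 5), oncogene arrays at 11.69 ± 0.21 (SD, n = 5), Wt1-null arrays at 11.62 ± 0.14 (SD, n = 5) and double arrays at 11.70 ± 0.17 (SD, n = 7). The 6 core subunits, among them those that carry the flavin and the iron-sulfur clusters, had a median of -0.347 in Wt1-null against control, and the 28 accessory subunits -0.168.

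Ndufv2, a core subunit with an iron-sulfur cluster, came closest to a call in double against control. It read 12.78, 12.91, 13.05, 12.83 and 12.86 on the control arrays, 12.80, 12.59, 12.23, 12.22 and 12.37 on the oncogene arrays and 12.63, 12.57, 12.48, 12.51 and 12.24 on the Wt1-null arrays. The 7 double arrays ran from 11.45 on double 4 to 12.99 on double 1, with a median of 12.28. All Wt1-null arrays were below all control arrays, whereas double 1 lay among the controls. The difference was -0.59 ± 0.18 (SE) in double against control, limma adjusted p = 0.0507, and became -0.45, adjusted p = 0.0413, without oncogene 4 and double 4. It was -0.45 in oncogene against control, adjusted p = 0.261, and -0.40 in Wt1-null against control, adjusted p = 0.388.

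Ndufa13, an accessory subunit also known as GRIM-19, had the largest difference of complex I between double and Wt1-null arrays. The double arrays ran from 13.06 to 13.36, with a median of 13.28, and the Wt1-null arrays read 12.74, 13.25, 12.61, 12.63 and 12.55. Only Wt1-null 2 overlapped with the double arrays. The difference was 0.49 ± 0.12 (SE), limma adjusted p = 0.0866. Without Wt1-null 2 it was 0.61, adjusted p = 0.0028, and Ndufa7, a further accessory subunit, was then called as well (0.51, adjusted p = 0.0157). For Ndufa13 it was 0.33 (adjusted p = 0.768) with the accession set as a block, 0.31 (adjusted p = 0.558) with the mitosis and 0.30 (adjusted p = 0.58) with the pyruvate carboxylase covariate, and 0.45 (adjusted p = 0.275) with Wt1-null 3 and 4 averaged. Ndufs8, a core subunit with iron-sulfur clusters, had the largest differences of the complex in both single groups, -0.55 ± 0.22 (SE) in Wt1-null against control (limma adjusted p = 0.321) and -0.47 in oncogene against control (adjusted p = 0.317). Its arrays overlapped in both.

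Genes whose Wt1-null arrays lay wholly below the control arrays numbered 9 of 94, where 4.19% of all genes were so placed. They were Ndufa12, Ndufb2, Ndufb5, Ndufb9 and Ndufv2 of complex I, Atp5a1 and Atp5g1 of complex V, the isoform Cox8b and the assembly factor Ndufaf5. For Ndufb9 the control arrays read 12.54, 12.57, 12.75, 12.67 and 12.67 and the Wt1-null arrays 12.29, 12.51, 12.27, 12.30 and 12.25, so that the highest Wt1-null array was just below the lowest control array. Among the 94 genes 0 had all Wt1-null arrays above the controls, against 1.49% of all genes. In oncogene against control only Ndufaf5 was placed wholly lower, against 2.81% of all genes.

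Ndufaf5, a methyl transferase-like factor of complex I assembly that modifies the core subunit Ndufs7, was the gene that fell. It read 9.28, 9.12, 9.43, 9.50 and 9.17 on the control arrays, 8.81, 8.76, 8.24, 8.67 and 8.73 on the oncogene arrays and 8.95, 8.37, 8.98, 8.94 and 9.02 on the Wt1-null arrays. The 7 double arrays ran from 7.30 on double 4 to 9.16 on double 1, with a median of 8.5. The oncogene and Wt1-null arrays all lay below the controls, and of the double arrays only double 1 reached them. Ndufaf5 was 0.881 lower on the log2 scale in double than in control arrays (SE 0.215), limma adjusted p = 0.0178, and the ratio of double to control was 0.543, with an interval from 0.398 to 0.740. In oncogene against control the difference was -0.66 ± 0.23 (SE), adjusted p = 0.158.

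The fall of Ndufaf5 was called with 20 of the 22 arrays left out in turn and under 14 of 17 other alternatives, where the rise of Cox6b2 was called in 22 and 16. Among single arrays left out, only those of the control and double groups can change these differences. The probe set rule cannot change them, as each gene has 1 probe set. Without double 4 the difference of Ndufaf5 in double against control was -0.69, limma adjusted p = 0.0103, and without Wt1-null 2 and double 2 it was -0.87, adjusted p = 0.0243. Without control 3 it was -0.85, adjusted p = 0.0542, and without control 4 it was -0.83, adjusted p = 0.0554. Within the third set of accession numbers it was -0.89, adjusted p = 0.0701, and in a fit of these groups alone adjusted p was 0.068. With the mitosis mean as a covariate it was -0.58, adjusted p = 0.133, and in 3 of the 4 groups the array with the lowest Ndufaf5 had the lowest mitosis mean: control 2, oncogene 4 and Wt1-null 2.

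**Figure D4:**
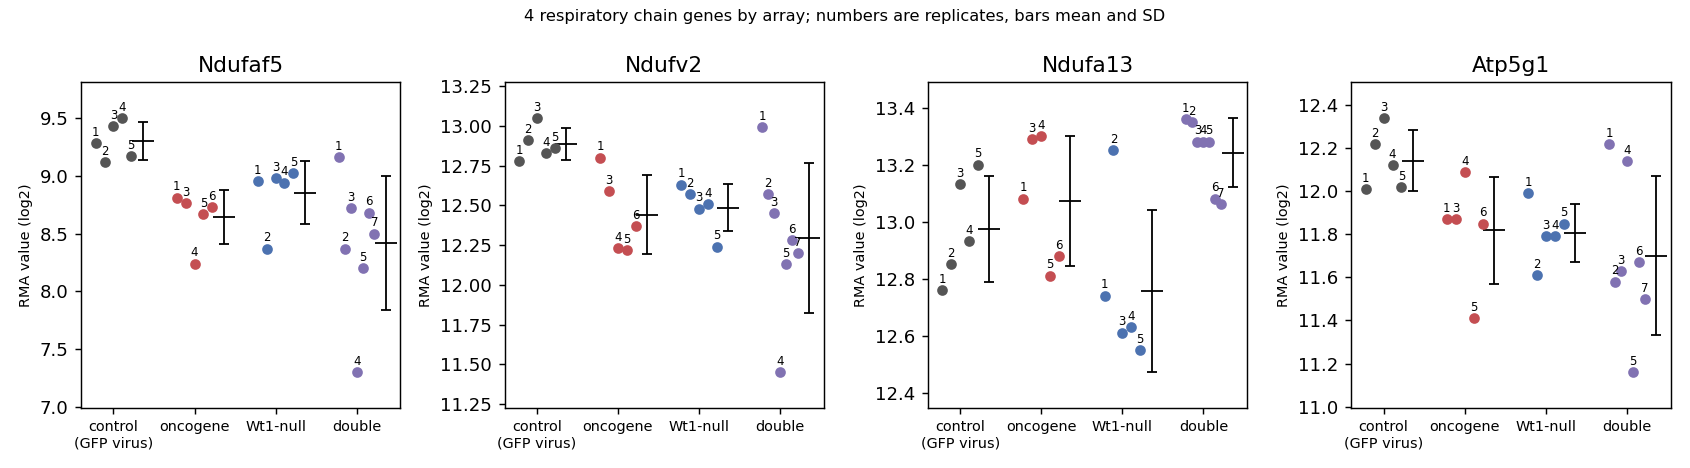
RMA values (log2, vertical axes, with different ranges) of Ndufaf5, Ndufv2, Ndufa13 and Atp5g1 on each array, numbered by replicate, with the mean and SD of each group beside the points. Double 4 is the lowest array for Ndufaf5 (7.30) and Ndufv2 (11.45), and Wt1-null 2 stands above its group for Ndufa13 (13.25).

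Of all 12 assembly factors, Ndufaf5 included, 8 were lower in double against control, with a median of -0.186, and none but Ndufaf5 was called. Ndufaf6 averaged 8.67 in control and 8.15 in double arrays, Ndufaf4 10.36 and 9.92, and Ndufaf2 9.07 and 8.66. Ndufaf4, a factor of complex I assembly, read 10.26, 9.95, 11.01, 10.99 and 10.42 on the Wt1-null arrays and from 9.31 to 10.39 on the double arrays, a difference of -0.60 ± 0.22 (SE), limma adjusted p = 0.214. Ndufaf6 was 0.22 lower in double than in oncogene arrays, limma adjusted p = 1. The relatives Ndufa4l2 and Cox7a2l, the latter a factor that joins complexes into supercomplexes, were not called, and Cox7a2l was 0.46 lower in Wt1-null than in control, limma adjusted p = 0.447.

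Complex II, the succinate dehydrogenase, which also takes part in the citric acid cycle, had all 4 subunits measured and none called. Sdha, the flavoprotein, was at 11.68, 11.66, 11.83, 11.79 and 11.84 on the control arrays and between 11.75 and 12.16 on the double arrays, a difference of 0.15 with limma adjusted p = 0.241. Sdhb, the iron-sulfur subunit, was 0.24 lower in double than in control (limma adjusted p = 0.342) and 0.31 lower in Wt1-null than in control (adjusted p = 0.388). The membrane anchors Sdhc and Sdhd differed by -0.13 and -0.06 in double against control, limma adjusted p = 0.669 and 0.919. Sdhd fell to 10.43 on oncogene 4 and 10.26 on double 4, while its other arrays were between 11.18 and 11.86.

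Complex III, the cytochrome bc1 complex, held 8 genes, of which 5, 7 and 5 were lower in oncogene, Wt1-null and double against control. Uqcrc2, a core subunit without a redox centre, was 0.33 lower in double (limma adjusted p = 0.168) and 0.31 lower in oncogene arrays (adjusted p = 0.319). Uqcrc1, its partner, was 0.39 lower in Wt1-null than in control, limma adjusted p = 0.471, and its highest values of all arrays were on double 4 (13.25) and oncogene 4 (12.94). The small subunits Uqcr10 and Uqcr11 differed by 0.14 in double against oncogene and 0.28 in double against Wt1-null, limma adjusted p = 1 and 0.422.

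Complex V held 17 genes, with 11, 12 and 14 lower in oncogene, Wt1-null and double against control. Atp5g1, Atp5g2 and Atp5g3 encode the same mature c subunit of the membrane ring. Atp5g1 read 12.01, 12.22, 12.34, 12.12 and 12.02 on the control arrays and 11.99, 11.61, 11.79, 11.79 and 11.85 on the Wt1-null arrays, which did not overlap. The double arrays ran from 11.16 to 12.22, with a median of 11.63. The difference of Atp5g1 in double against control was -0.44 ± 0.15 (SE), limma adjusted p = 0.0866, beside -0.25 for Atp5g2 and 0.00 for Atp5g3, whose intervals ran from -0.55 to 0.06 and from -0.14 to 0.13. Without double 1 Atp5g1 was called in double against control (-0.53, adjusted p = 0.0195), and so it was without double 4 (-0.51, adjusted p = 0.0336). With the mean of its 2 probe sets in place of the brighter one, the difference of Atp5g1 was only -0.09, limma adjusted p = 0.658. Atp5e, the epsilon subunit of the F1 head, was 0.45 lower in Wt1-null (limma adjusted p = 0.335) and 0.44 lower in oncogene than in control arrays (adjusted p = 0.264). Atp5j, a subunit of the stalk, was 0.27 lower in double than in Wt1-null arrays, limma adjusted p = 0.605.

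In the oncogene, Wt1-null and double groups the arrays spanned more than the 4 group means did in all 7 gene groups (the 5 complexes, with the tissue isoforms of complex IV apart, and the assembly factors), and in the control group in 4 of 7. Double 1 was the highest of its group in the mean of complexes I, II, III and V and of the assembly factors. Double 4 was the lowest in complexes I, II, III and V, in the ubiquitous subunits of complex IV and in the assembly factors. For complex I they read 12.02 and 11.53, while the means of the 4 groups lay between 11.62 and 11.82. Wt1-null 2 was the highest of its group in all 7 gene groups, and Wt1-null 5 the lowest in all but complex II. The count of called genes in double against control rose from 2 to 8 without double 1, with Atp5e, Atp5g1, Cox8b, Ndufb5, Ndufv2 and Uqcrc2 added, and to 5 without oncogene 4 and double 4. How many of all genes these fits called is not given here, so the rise cannot be read as particular to the respiratory chain.

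**Figure D5:**
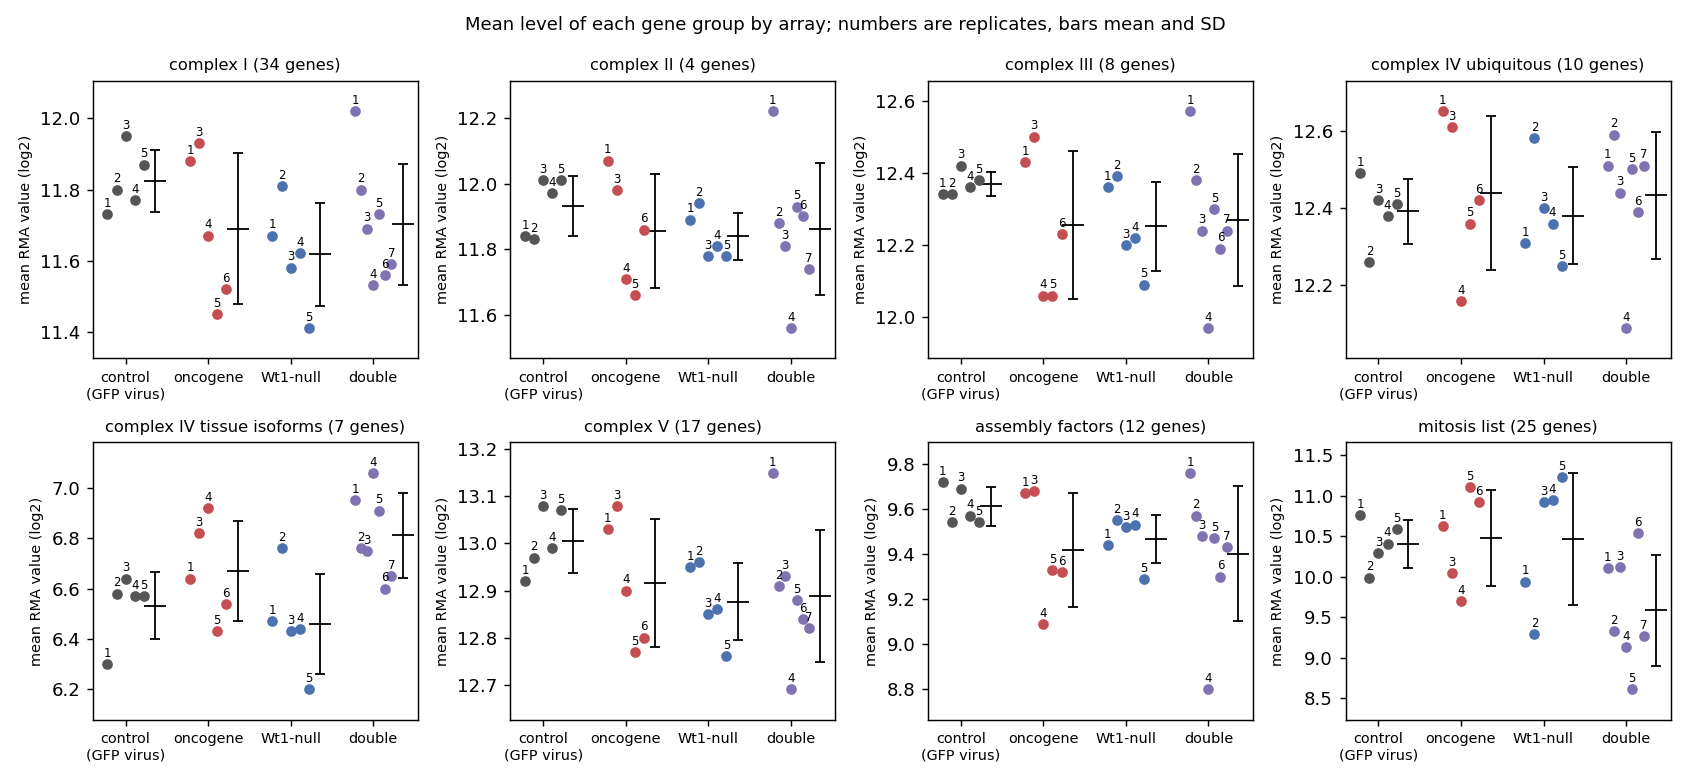
Mean RMA value (log2, vertical axes) of the genes of each complex, of the assembly factors and of 25 mitosis genes on each array, numbered by replicate, with the mean and SD of each group beside the points. The groups overlap in every panel, double 1 and double 4 mark the top and bottom of the double group in complexes I, II, III and V, and the mitosis panel shows double 5 lowest at 8.61.

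None of the 94 genes was called for an effect of the oncogene that differed between cells with and without Wt1. The control alone received GFP virus, and Wt1-null and double arrays share no set of accession numbers. A differing effect of the oncogene therefore cannot be told apart here from the viruses and the sets. In this interaction, double against Wt1-null minus oncogene against control, 0 of the 94 genes were called by limma, against 0.011% of all genes, and 5 had an unadjusted p below 0.05, against 8.55%. The smallest p among them belonged to Ndufb9, with an interaction of 0.36 ± 0.13 (SE), limma adjusted p = 0.58.

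Other genes of mitochondrial energy metabolism were read from lists. Of 76 genes of the mitochondrial ribosome, which makes the subunits encoded in mitochondrial DNA, 65 were lower in double against control, with a median of -0.278, and 7 were called, all lower, against 2.45% of all genes called lower. Mrps28 was 0.76 lower (limma adjusted p = 0.0061), Mrpl54 0.76 lower (adjusted p = 0.00895) and Mrps15 0.76 lower (adjusted p = 0.0184). In oncogene against control 67 were lower and 2 were called, Mrpl54 (-0.97) and Mrpl17 (-0.53), against 56.2% of all genes lower and 2.04% called. In Wt1-null against control 65 were lower and 0 were called by limma, with 22 at an unadjusted p below 0.05, against 59.7% of all genes lower, 0.104% called and 12.7% at that p. Among 34 further assembly factors, the 3 with the smallest p of those called in double against control were lower. They were Cox18, which inserts a complex IV subunit into the membrane (-0.88, limma adjusted p = 0.00274), Ecsit of complex I assembly (-0.83, adjusted p = 0.0115) and Nubpl, which delivers iron-sulfur clusters to complex I (-0.75, adjusted p = 0.0149). How many of the 34 were called is not given here. These 3 therefore cannot be set against the 2.45% of all genes called lower. Ecsit also fell in oncogene against control (-0.78, adjusted p = 0.0477).

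Of 20 genes of electron carriers, Coq3, a methyltransferase of coenzyme Q synthesis, fell in oncogene (-0.78, limma adjusted p = 0.0458) and in double against control (-0.86, adjusted p = 0.00819). Sqor, which passes electrons from sulfide to coenzyme Q, rose by 1.03 in double against control, limma adjusted p = 0.0479. The list also took in Aox1, an aldehyde oxidase of the cytosol and no part of the chain, which rose by 2.02 in oncogene, 2.21 in double against control and 1.69 in double against Wt1-null. On the citric acid cycle list of 19 genes only Pck2 was called, a mitochondrial enzyme that makes phosphoenolpyruvate and is no step of the cycle itself. Pck2 was lower in oncogene (-1.64, limma adjusted p = 0.0185), Wt1-null (-1.93, adjusted p = 0.0335) and double arrays (-1.80, adjusted p = 0.00274) than in control. Of 10 genes of carriers and inhibitors, Chchd3 of the cristae (-0.88) and the channel Vdac3 (-0.36) fell in double against control. Pdk3, which switches off pyruvate dehydrogenase, fell by 1.0 in the same comparison and was the only gene called of 21 of glycolysis. Of all genes, 5.93% were called in double against control. Pck2 and Pdk3, as the only calls among 19 and 21 genes, are no excess over that share. Whether the lists of 20 and 10 genes held more calls than that share was not tested.

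Of 20 regulators of mitochondrial biogenesis 0 were called by limma in any of the 5 comparisons between groups, with 6 at an unadjusted p below 0.05 in double against control, against 20.1% of all genes. Nrf1 averaged 8.5 in control and 8.13 in double arrays, Tfam 9.46 and 9.30, and Esrra 8.86 and 9.29. Ppargc1a, the coactivator PGC-1alpha, was between 4.41 and 5.09 on all arrays, about the floor. ND5, the only subunit encoded in mitochondrial DNA with a probe set of its own, averaged 13.36 in control, 13.37 in oncogene, 13.72 in Wt1-null and 13.45 in double arrays. Among markers of other cells, Cd68 of macrophages (6.05 in control, 6.85 in double) and Tek of endothelium (5.51 and 6.80) rose in double against control, limma adjusted p = 0.0305 and 0.0448, as did Pdgfra of fibroblasts (10.44 and 12.23, adjusted p = 0.0136), while the other 5 macrophage and 4 endothelial markers were not called. The mean of 5 epithelial markers ran from 6.04 to 6.38 over the control and from 6.07 to 7.39 over the double arrays, highest on double 5 and double 4 (7.22), with Krt18 at 5.92 in control and 7.56 in double. The mean of 4 neuronal markers ran from 6.41 to 7.44 and from 6.81 to 7.65, with Stmn2 at 8.99 and 11.43, and no epithelial or neuronal marker was called. The part of these markers in the results above was not tested.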

How the data were processed

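The authors deposited log2 values from RMA in Affymetrix Expression Console, as the submitters' processing notes name them, without versions. RMA makes the distributions of the arrays alike, so a shift common to most transcripts would largely not show, and differences near the floor come out too small. The medians of the deposited arrays still ran from 6.23 to 6.33. The values ran from 3.29 to 15.14. The 22 arrays were grouped by title (replicates 1, 3, 4, 5 and 6 for the oncogene, whose gene is not reported here by name). The design text counts 6 oncogene samples, of which 5 were used here. Whether replicates were separate embryos or cultures is not stated in the labels. P-values then measure only the spread between these samples, which may be technical, and precision is limited by how many arrays each group has.

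Of 45101 probe sets, 34958 had 1 gene in the platform annotation, 932 several and 9211 none listed; 34754 matched RefSeq GRCm38.p6 by gene ID. Each gene took the probe set with the highest mean; 53 of the 94 members had several, and their other probe sets had the sign of the one used in 60 to 66 of 81 cases per comparison. The fit of 4 group means used limma (3.58.1, lmFit and eBayes) in R (4.3.3), was tested on simulated data, with Benjamini-Hochberg adjustment over 18194 genes. Promoter motifs were searched with Python version 3.11.15.

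The members, lists and tests were chosen with earlier results of these data known. Members named were those called, the largest absolute difference per complex and comparison, the isoform pairs and complex II. Listed genes were named when called, and only those with the smallest p where a list had more. Genes named outside this, such as Ndufb9, Ndufa7, Cox6c and Ndufa4, were chosen after their values were seen. The main fit did not pair samples by replicate number, and the labels do not say whether same-numbered samples belong together. Deviations of same-numbered arrays correlated from -0.471 to 0.773, with 13 of 28 pairs over 0.1. The highest were oncogene 4 with double 4 (0.773), oncogene 6 with double 6 (0.622) and Wt1-null 2 with double 2 (0.597). The alternatives were the probe set rule, leaving out dim genes, a second quantile normalization, centring on the median, array weights, a trended robust variance, only the groups compared, the replicate number or the set of accession numbers as a block, the third set alone, arrays left out and an Xist covariate. Leaving out Wt1-null 2 and double 2 together and the mitosis and pyruvate carboxylase covariates were added after seeing the data.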

Additional observations from a re-analysis of the deposited data

Results flagged for a closer look

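Of 108 groups of values examined (20 named genes and 7 gene group means in the 4 groups), 14 had an array far from the others of its group by Dixon's criterion, where chance gives about 1 in 20. Double 4 was low in 5 of them, at 12.09 for the mean of the ubiquitous complex IV subunits, 11.25 for Atp5j, 9.44 for Ndufa5, 10.26 for Sdhd and 11.38 for Uqcr10. Oncogene 4 was low in 3, at 11.73 for Atp5j, 10.03 for Ndufa5 and 8.24 for Ndufaf5. Wt1-null 2 was high for Ndufa13 (13.25) and Uqcr11 (12.15) and low for Ndufaf5 (8.37). Single flags were control 1 for the mean of the complex IV tissue isoforms (6.30), Wt1-null 1 for Cox7c (4.70) and control 2 for Sdhd (11.18), each low in its group.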

How the results depend on the processing

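The largest dependence was on array weights, under which 36, 45, 33, 12 and 26 of the 94 genes were called in oncogene, Wt1-null and double against control, double against Wt1-null and the interaction, with 4419, 6016, 6037, 3503 and 2748 of all genes. A fit of only the groups compared called 1 in each comparison with control (Ndufaf5, Ndufv2 and Cox6b2), with 770, 599 and 815 of all genes. In double against control the third set of accession numbers alone called 1 (Cox6b2), the mitosis covariate 1 (Sdhaf1) and leaving out oncogene 4 and double 4 called 5, which called 1 in oncogene against control (Cox6c). The mitosis covariate called 1 (Cox6b2) and the pyruvate carboxylase covariate 2 (Cox6b2 and Ndufaf5) in oncogene against control. Leaving out Wt1-null 2 and double 2 called 3 in double against Wt1-null, with 671 of all genes against 15. Leaving out 1 array at a time gave 0 to 1 in oncogene against control, 1 to 8 in double against control and 0 to 3 in double against Wt1-null. Where no count of all genes stands beside them, these counts cannot be read as particular to the respiratory chain. Some differences near 0 reversed: Atp5j in double against Wt1-null (0 with array weights, 0.14 with the accession block, 0.02 with the pyruvate carboxylase covariate) and in double against oncogene (-0.39 to 0.03 over single arrays left out, the latter without double 4); Cox7c in Wt1-null against control with the accession block (-0.17); Sdhd in double against Wt1-null (0.11 with the accession block, 0.05 and 0.13 with the 2 covariates); and in double against oncogene Sdhc (-0.04 to 0.11 over single arrays left out, below 0 without oncogene 5, oncogene 6 or double 1, -0.1 with Xist, -0.05 with mitosis), Cox6b2 (-0.19), Ndufa5 (0.02) and Ndufaf6 (0.02) with mitosis. The cause was not tested. With the replicate number as a block no member call changed: 2 genes were called in double against control, Cox6b2 at 2.55 (adjusted p = 0.0103) and Ndufaf5 at -0.94 (adjusted p = 0.0198). Over 17 alternatives other than single arrays left out, Cox6b2 was called in 16, from 1.42 to 2.55, with adjusted p from 0.000445 to 0.0592. The probe set rule could not change its value, as it has 1 probe set.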
